A study of Mus musculus with 12 samples.

Results

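The genes described here encode the proteins of the cytosolic ribosome, compared between dopaminergic neurons of 2 regions of the mouse midbrain. They were chosen by name from the count table: Rpl or Rps followed by a digit, with Rpsa, Rplp0, Rplp1 and Rplp2, but without the S6 kinase genes (10 rows), the rows named as pseudogenes (5 rows) and mitochondrial ribosomal proteins. This gave 86 of the 23079 genes listed, of which 52 carry names of the large subunit and 34 of the small subunit. The rule itself uses names only. The names also take in 8 paralogs or near copies of other members (Rpl3l, Rpl7l1, Rpl10l, Rpl22l1, Rpl36al, Rpl39l, Rps27l and Rps4y2) and Rps19bp1, which encodes a protein that binds Rps19 and is not a subunit of the ribosome. Rps4y2 and Rps3a are older symbols of Rps4l and Rps3a1.

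Each ribosomal subunit is built from ribosomal RNA and a fixed set of proteins. Most of these proteins are needed in equal numbers. Their mRNAs are short, abundant and translated together. Transcription of most of them starts at a cytosine followed by a run of pyrimidines, the terminal oligopyrimidine tract, through which the growth kinase mTOR and the RNA-binding protein Larp1 set their translation. Ribosome supply is of interest in dopaminergic neurons because their long and branched axons have a high demand for protein.

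RNA came from C57BL/6 mice and was obtained by TRAP, taken to stand for translating ribosome affinity purification: selected cells carry a tag on their ribosomes, and mRNAs are recovered along with the tagged ribosomes. One group holds dopaminergic neurons of the substantia nigra pars compacta, SNpc, the other group those of the ventral tegmental area, VTA, the 2 populations that differ in their loss in Parkinson disease. The sources used here name no driver of the tag, no mouse line and no age of the animals, and no treatment. The 12 deposited columns held 2 identical pairs, SNpc 4 with SNpc 5 and VTA 2 with VTA 3, in which 0 genes differed, so each pair was counted as 1 library and 5 libraries per region remained (SNpc 1, 2, 3, 4 and 6, and VTA 1, 2, 4, 5 and 6).

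Total counts were 62356964 to 81393907 per library. The labels do not say whether each library is a different animal, and the p-values therefore reflect only how much these libraries vary, which may be technical. All 8 dopaminergic markers (Th, Slc6a3, Slc18a2, Ddc, Drd2, Pitx3, Nr4a2 and En1) were present, and their summed level was 9960 to 14500 CPM in SNpc and 5050 to 8340 CPM in VTA. All 8 were called higher in SNpc by the test described below, with a median log2 fold change of 0.78, and their part in the differences of ribosomal protein genes was not tested. CPM is a gene's count relative to the total count of its library, which was scaled by TMM, a normalization that assumes most genes to be equal between libraries. The TRAP tag is commonly fused to the protein of Rpl10a, a member of the family studied, and gene counts cannot tell a tagged copy from the endogenous gene.

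The start of the transcript is shown for members whose first base is a C followed by at least 4 pyrimidines, since this tract is the sequence feature the family is known for. RefSeq promoter sequences on GRCm38.p6 were at hand for 65 of the 86 members, with 77 annotated starts. Each line gives 15 bases before the start and the first 15 transcribed bases, with the pyrimidine run in capitals. The 3 longest tracts, those of Rpl15, Rpl35 and Rps10, were added to those of members named elsewhere.
Rpl38 (chr11:114668565-114668594, + strand): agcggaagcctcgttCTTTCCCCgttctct
Rplp2 (chr7:141447636-141447665, + strand): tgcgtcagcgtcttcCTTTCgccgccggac
Rpl15 (chr14:18270972-18271001, - strand): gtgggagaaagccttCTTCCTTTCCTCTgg
Rpl35 (chr2:39005117-39005146, - strand): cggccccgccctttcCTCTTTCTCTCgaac
Rps10 (chr17:27635230-27635259, - strand): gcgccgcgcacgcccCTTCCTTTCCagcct
Rps21 (chr2:180257364-180257393, + strand): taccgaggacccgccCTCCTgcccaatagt
Rps6 (chr4:86857353-86857382, - strand): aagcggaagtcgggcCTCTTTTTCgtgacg
Rps15a (chr7:118116133-118116162, - strand): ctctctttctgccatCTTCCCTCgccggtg
Rps27 (chr3:90213634-90213663, - strand): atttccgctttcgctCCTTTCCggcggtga
Of the 77 starts, 13 had such a tract (16.9%), against 2.51% of the 32851 mouse starts in the same table. A start annotated a few bases away from the true start would be missed by this count.

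Further letters were searched in the 300-base windows that run from 250 bases before each start. CTCTTTC on the gene's strand stood in 19.5% of the members' windows and in 3.99% of all windows. CTTTCC, which can overlap it, stood in 37.7% against 14.1%. CCGGAAG, the core bound by ETS family factors, stood on either strand in 35.1% against 8.86%. TATAAA, by contrast, stood in 7.79% of the members' windows and in 8.32% of all. A match describes the sequence and is not a measured binding site.

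Members with and without a tract had medians close to each other. Of the 13 members with a tract at an annotated start, all tested, 8 passed the test described next, with a median log2 fold change (SNpc minus VTA) of 0.44 and a range from 0.07 to 0.66. Of the 50 other tested members with a promoter sequence, 27 passed, with a median of 0.41. Rpl38 and Rps21 lay among the members with larger differences, whereas Rps15a, with a clear tract, lay at the low end of the range.

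Ribosomal protein mRNAs were more abundant in the SNpc libraries. Of 84 members tested, 49 were higher in SNpc and 0 in VTA (edgeR quasi-likelihood test with Benjamini-Hochberg adjustment over 15685 genes, adjusted p under 0.05). Among all genes tested 17.8% were called higher in SNpc and 20.4% higher in VTA, so 58.3% of the tested members stood against 17.8% of all genes. No member had even an unadjusted p under 0.05 toward VTA, against 24.7% of all genes. The median log2 fold change was 0.41 for the tested members and -0.04 for all genes tested. For the 933 genes tested with transcripts up to 1000 bases it was 0.42, and 39.1% of them were called higher in SNpc.

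The differences were small. Called members were 1.22-fold to 1.68-fold higher in SNpc, and 5 of them were at least 1.5-fold higher. Of the 35 tested members without a call, 19 had an adjusted p under 0.1. The 5 SNpc values lay above all 5 VTA values for 18 members, all of them called, whereas 12% of all genes were separated in this direction. The other 31 called members overlapped between the regions. In these bulk samples, fewer cells of a type and less RNA per cell cannot be told apart.

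**Figure D1:**
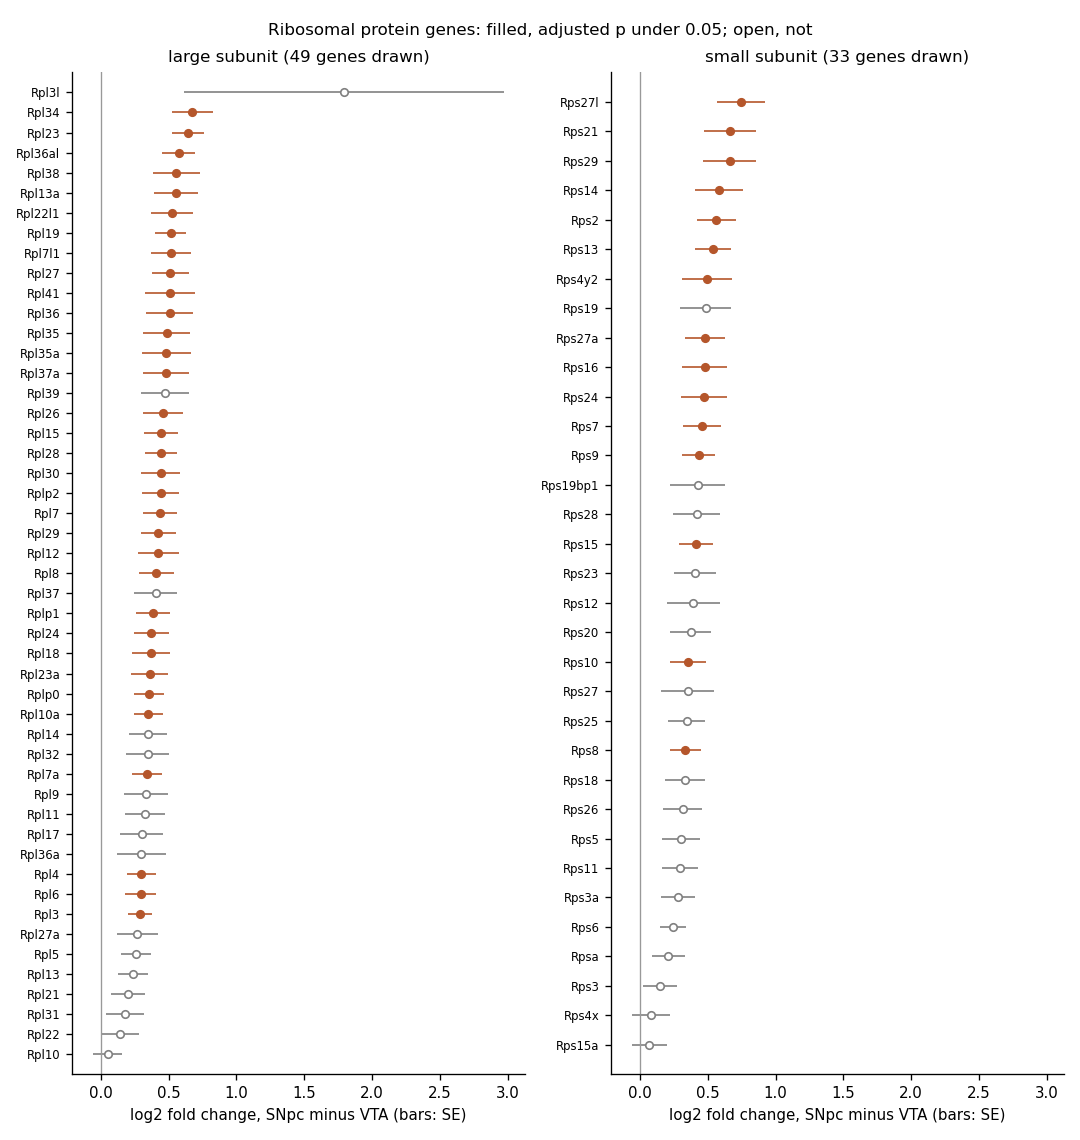
Log2 fold change (SNpc minus VTA, horizontal axis) of 82 tested ribosomal protein genes of the large (left) and small (right) subunit; points are the fitted values, bars the standard error, and filled points have an adjusted p under 0.05. All points lie right of 0, from 0.05 in Rpl10 to 0.74 in Rps27l among members above 1 CPM, and Rpl3l, at 1.79, has a wide error.

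The libraries of a region were not alike. Ribosomal protein genes took 1.53%, 1.70%, 1.61%, 2.02% and 1.38% of all counts in SNpc (libraries 1, 2, 3, 4 and 6). They took 1.09%, 0.999%, 1.52%, 1.43% and 1.49% in VTA (libraries 1, 2, 4, 5 and 6). SNpc 4 was the highest of the 10, VTA 1 and VTA 2 were the lowest, and SNpc 6 lay below VTA 4, 5 and 6. The mean share was 1.65% ± 0.237 for SNpc against 1.31% ± 0.242 for VTA (SD, n = 5 per region).

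The members moved together from library to library. Each member was set against its own mean over the 10 libraries on the log2 CPM scale. The median member stood 0.53 and 0.60 below its mean in VTA 1 and VTA 2, where 2 and 0 of the 84 tested members lay above their own mean. It stood within 0.08 of its mean in VTA 4, 5 and 6 and in SNpc 6. In SNpc 4 the median member stood 0.43 above, and all 84 tested members were above their own mean. The large and small subunit members did the same: in VTA 2 the median deviation was -0.59 for the large and -0.62 for the small subunit, and in SNpc 4 it was 0.42 and 0.44.

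**Figure D2:**
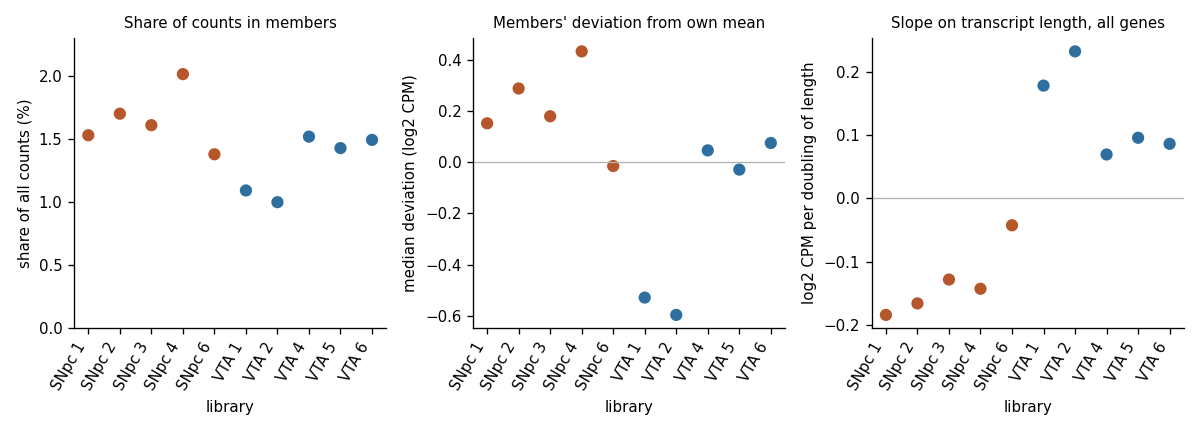
For each of the 10 libraries (horizontal axis; SNpc in orange, VTA in blue): the percent of all counts in ribosomal protein genes (left), the median deviation of the tested members from their own mean in log2 CPM (middle), and the slope of log2 CPM deviation per doubling of transcript length over all genes tested (right). VTA 1 and VTA 2 are lowest in the left and middle panels and highest in the right panel, and the SNpc slopes are all negative and the VTA slopes all positive.

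VTA 1 and VTA 2 also stood apart in other measures. Their mean log2 CPM of dopaminergic markers, 8.34 and 8.01, was the lowest of the 10 libraries. It was 8.58 to 8.63 in the other VTA libraries and 8.87 to 9.42 in SNpc. They also had the most genes with a count, 18027 and 18445. Of 6 endothelial markers, Cldn5 and Cdh5 did not pass the filter on low counts. The mean log2 CPM of the 4 tested (Pecam1, Flt1, Tek and Kdr) was 3.31 in VTA 1 and 1.2 in VTA 2. It was between -0.81 and -0.17 in the other VTA libraries and between -2.44 and 0.45 in SNpc. The part of the dopaminergic and endothelial markers in the differences of ribosomal protein genes was not tested in itself. When VTA 1 and VTA 2 were left out together, 10 of 84 members were called higher in SNpc. This share was near that of all genes (11.5%). The median log2 fold change of the tested members was 0.19 in that fit. The called members included Rpl15, Rpl19, Rpl23, Rpl28, Rpl34, Rpl36al, Rps2, Rps13 and Rps27l. Leaving out VTA 1 or VTA 2 alone left 28 calls each (15.5% and 14.5% of all genes), and leaving out SNpc 2 left 30 (15.3%).

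Summed markers of other cells were astrocytic 260 to 453 CPM in SNpc and 446 to 595 in VTA (0 of 8 markers called higher in SNpc and 3 in VTA), oligodendrocytic 276 to 1310 and 694 to 868 (0 and 1 of 8), and microglial 44.7 to 68 and 52.8 to 73.8 (1 and 1 of 8). Those of oligodendrocyte precursors were 13.8 to 43 and 35.4 to 54 (0 and 2 of 4), of endothelium 0.994 to 7.21 and 2.57 to 66.6 (0 and 1 of 4 tested of 6), of GABA neurons 84.8 to 314 and 165 to 279 (0 and 0 of 3), and of glutamate neurons 18.6 to 87.4 and 91.3 to 130 (0 and 1 of 2). No marker was at 0 in every library. With the mean of the glial and vascular markers as a covariate, 21 members were called higher in SNpc (9.56% of all genes were), all of them among the 49, and the median log2 fold change was 0.42.

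The member with the smallest p was in the large subunit. Rpl23 (Entrez 65019, chr11:97777527-97782437 on mm10) encodes a protein at the face of the large subunit that meets the small one, and, when free, this protein also binds the p53 regulator Mdm2. Its level was 244.5, 251, 234, 264 and 208.5 CPM in the SNpc libraries (in the order 1, 2, 3, 4 and 6) and 122, 124, 184, 173 and 167 CPM in the VTA libraries (in the order 1, 2, 4, 5 and 6). Every SNpc value lay above every VTA value, and VTA 1 and VTA 2 were the lowest. The log2 fold change was 0.64 ± 0.12 (SE; edgeR adjusted p = 0.000531), and it was 0.46 without VTA 1 and VTA 2 (edgeR adjusted p = 0.00234).

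Rpl19 (chr11:98026710-98030492), whose protein reaches across to the small subunit, stood at 355, 373, 338, 386 and 306 CPM in SNpc. In VTA it stood at 216, 186, 272, 284 and 272 CPM. The regions did not overlap, with SNpc 6 nearest to VTA. Its log2 fold change was 0.52 ± 0.12 (SE, edgeR adjusted p = 0.00211).

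Rpl34 (chr3:130726831-130730398) was at 84.7, 87.7, 81.6, 72.3 and 69.4 CPM in SNpc and at 34.6, 38.5, 52.6, 56.9 and 65.1 CPM in VTA. The groups did not overlap, and the log2 fold change was 0.68 ± 0.15 (SE, edgeR adjusted p = 0.00246). This value is uncertain as to its gene, because the row of Rpl34-ps1 on chromosome 6 held the same count in every library (42267 over all libraries in both rows). Rpl36al (chr12:69182731-69184083), a near copy of the X-linked Rpl36a, was at 251, 272, 254.5, 243 and 212 CPM in SNpc and at 129.5, 134, 196.5, 183 and 184 CPM in VTA. Here too the regions were separate, and the log2 fold change was 0.57 ± 0.12 (SE, edgeR adjusted p = 0.00132).

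In the small subunit 15 of 34 members were called, against 34 of 50 tested in the large subunit, with medians of 0.40 and 0.42; the difference between the subunits was not tested. Rps13 (chr7:116331505-116334195) was at 232, 239, 249, 256 and 202 CPM in SNpc. In VTA it was at 131, 119, 188, 179 and 194 CPM. The regions did not overlap and the log2 fold change was 0.54 ± 0.13 (SE, edgeR adjusted p = 0.00377). Rps2 (chr17:24718116-24721929), which lines the path by which mRNA enters the ribosome, was at 252.5, 277.5, 280.3, 294 and 235.5 CPM in SNpc and 136, 129.7, 202, 207.5 and 231 CPM in VTA. SNpc 6 lay close above VTA 6, and the log2 fold change was 0.56 ± 0.14 (SE, edgeR adjusted p = 0.00543).

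Rps27l (chr9:66946086-66949516), a paralog of Rps27 that is known as a p53 target, had the highest log2 fold change of the called members. Its level was 23.3, 24.6, 24.3, 21.4 and 16.5 CPM in SNpc and 10.6, 10.2, 14.2, 15.6 and 15.2 CPM in VTA, low for the family but separate between the regions. The log2 fold change was 0.74 ± 0.18 (SE, edgeR adjusted p = 0.00321). Rps21 (chr2:180257377-180258445) was at 109.5, 127, 115.5, 141 and 81.1 CPM in SNpc and 48.2, 51.9, 96, 78.9 and 87.8 CPM in VTA. SNpc 6 lay below VTA 4 and VTA 6, so the regions overlapped although the gene was called (log2 fold change 0.66 ± 0.19, edgeR adjusted p = 0.0139).

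**Figure D3:**
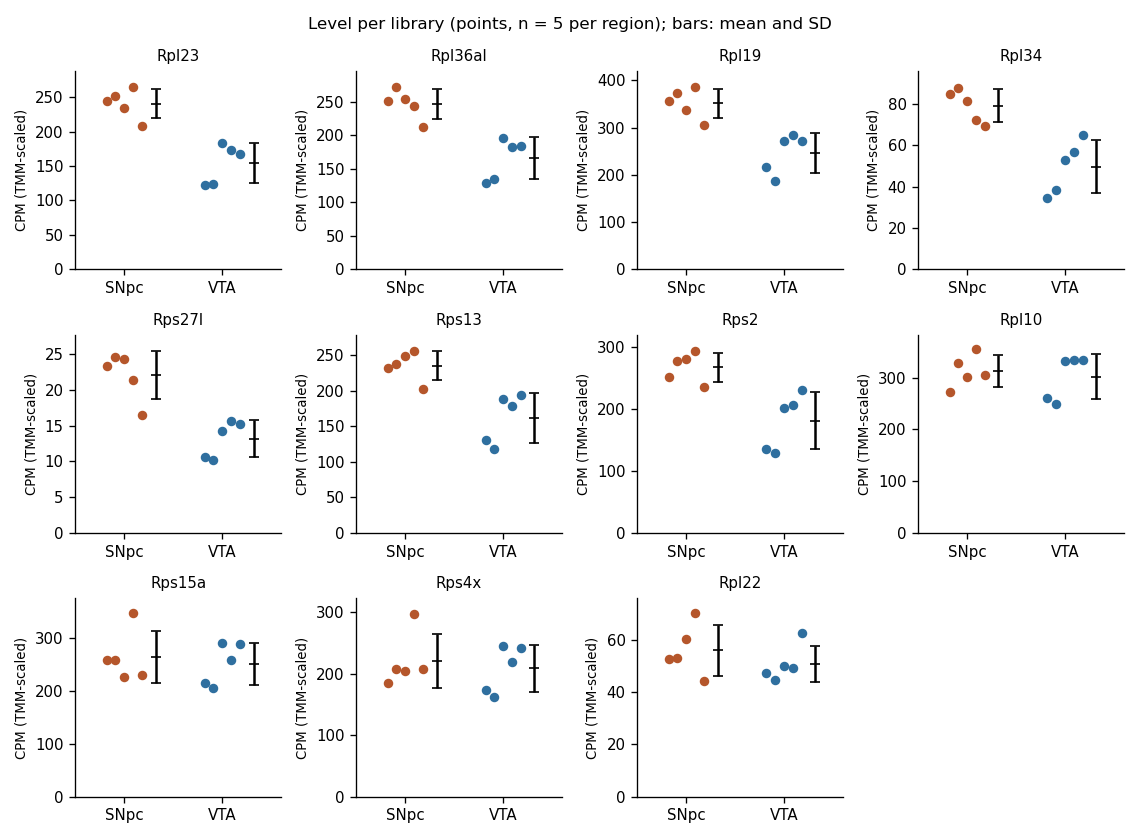
TMM-scaled CPM (vertical axes from 0) of 11 members in each library of SNpc (orange) and VTA (blue), in library order, with bars for the mean and SD over 5 libraries. The first 7 panels hold members with the smallest p, in which the regions do not overlap and VTA 1 and VTA 2 (the first 2 blue points) are lowest; the last 4 panels hold Rpl10, Rps15a, Rps4x and Rpl22, in which the regions overlap.

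At the other end were members with nearly the same level in both regions. Rpl10 (chrX:74270812-74273135), which joins the large subunit last and completes the site where peptide bonds form, was at 272, 327, 302, 355.5 and 306 CPM in SNpc and 261, 248, 333, 333 and 335 CPM in VTA. VTA 4, 5 and 6 lay above 4 of the 5 SNpc libraries, and the log2 fold change was 0.05 ± 0.11 (SE, edgeR adjusted p = 0.75). Rps4x (chrX:102184941-102189394) was at 185, 208, 205, 298 and 207 CPM in SNpc and 173, 162.5, 246, 219.8 and 242 CPM in VTA, and SNpc 4 stood alone above the rest. Its log2 fold change was 0.08 ± 0.14 (SE, edgeR adjusted p = 0.687).

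Rps15a (chr7:118104372-118116188) showed the same pattern, at 258, 257, 226, 346 and 228 CPM in SNpc and 214, 204, 289, 258 and 287 CPM in VTA (log2 fold change 0.07 ± 0.13, edgeR adjusted p = 0.699). Rpl22, an RNA-binding protein whose loss mice survive, was at 52.6, 53.2, 60.5, 70.4 and 44.4 CPM in SNpc and 47.5, 44.6, 49.99, 49.3 and 62.9 CPM in VTA (log2 fold change 0.14 ± 0.13, edgeR adjusted p = 0.427). Without VTA 1 and VTA 2, Rpl10, Rps4x, Rps15a and Rps3 had log2 fold changes of -0.09, -0.10, -0.08 and -0.05, none of them called. Rpl10 and Rps4x are on the X chromosome, as are Rpl36a and Rpl39. None of these 4 was called (median log2 fold change 0.19), against 49 of 80 tested autosomal members (median 0.41), a split chosen after the values were seen and not tested.

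Several members are studied for what they do outside or within the ribosome. The stalk proteins, which recruit elongation factors, were all called: Rplp0 at a log2 fold change of 0.36 (edgeR adjusted p = 0.0167), Rplp1 at 0.38 (edgeR adjusted p = 0.0228) and Rplp2 at 0.44 (edgeR adjusted p = 0.0179). Among them the regions were separate in Rplp0 alone, at 98.2, 81.9, 84.6, 85.8 and 75.2 CPM in SNpc and 62.6, 55, 72.5, 67.8 and 74.8 CPM in VTA. Rpl5 and Rpl11, which bind the smallest large-subunit rRNA and, when free, Mdm2, had log2 fold changes of 0.26 and 0.33 and no call (edgeR adjusted p = 0.0751 and 0.0992).

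Rpl26, which lies at the tunnel exit and also binds the p53 mRNA, was called at 0.46 ± 0.15 (SE, edgeR adjusted p = 0.0209). Its row held the same counts as that of the pseudogene Gm15772 on chromosome 5 in every library (99115 in all), so its reads cannot be told apart from that locus. The row of Rpl35 likewise differed by only 119 counts in all from that of Wdr38, which abuts it on chromosome 2. Rpl38, whose loss in mice alters the translation of Hox mRNAs, was at 181, 200.3, 188, 224 and 132 CPM in SNpc and 96.6, 86.2, 151, 135 and 160.3 CPM in VTA. SNpc 6 lay below VTA 4, 5 and 6, and the log2 fold change was 0.56 ± 0.17 (SE, edgeR adjusted p = 0.0198). Rpl10a, whose protein commonly carries the TRAP tag, was at 352, 393.5, 349.5, 395 and 356.5 CPM in SNpc and 256, 223, 329, 330.1 and 312 CPM in VTA. Its regions were separate (log2 fold change 0.35 ± 0.11, edgeR adjusted p = 0.0171). Its difference lay between the lower quartile (0.32) and the median (0.41) of the tested members.

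In the small subunit, Rps6, the substrate by which S6 kinase activity is usually read, was at 292, 304, 286, 322 and 263 CPM in SNpc and 227, 217, 277, 276 and 241 CPM in VTA. It missed the threshold narrowly (log2 fold change 0.24 ± 0.094, edgeR adjusted p = 0.05003). Rps19 and Rps14, whose loss underlies human anaemias, had log2 fold changes of 0.49 (edgeR adjusted p = 0.0508, not called) and 0.58 (edgeR adjusted p = 0.0167, called). Rps27a, made as a fusion with ubiquitin, was called at 0.48 (edgeR adjusted p = 0.0148). Rps3, at the mRNA entry, and Rpsa, known also as a laminin receptor, had 0.15 and 0.21 and were not called (edgeR adjusted p = 0.383 and 0.193).

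The members span a wide range of abundance. Levels of different genes were compared per length, as RPKM, except in the paralog ratios below, which are of counts. RPKM are CPM divided by the transcript's length in units of 1000 bases, computed from the counts. The highest in the large subunit was Rpl41, the shortest ribosomal protein, at 1115 RPKM, followed by Rplp1 (434), Rpl23a (413) and Rpl24 (403). In the small subunit Rps27 was the highest (547), and Rps15 (457) and Rps29 (338) were among the highest. Among members other than paralogs and Rps19bp1, levels ran from 26.1 to 1115 RPKM, and such values depend on the transcript chosen, as for Rps15a with an annotated length of 5179 bases.

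Of these abundant members, Rpl41 was at 583, 662, 572, 598 and 445 CPM in SNpc and 289, 257, 486, 462 and 517 CPM in VTA. It was called with overlapping regions (log2 fold change 0.51 ± 0.18, edgeR adjusted p = 0.0436). Rps29 was called at 0.66, Rps15 at 0.41, Rpl24 at 0.37 and Rpl23a at 0.36 on the log2 scale. Rps27, at 0.35, was not called (edgeR adjusted p = 0.171).

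Paralogs can replace their canonical partner in a share of ribosomes, so their count ratio was taken within each library, where the scale of the library cancels. The ratio is not per length, and a trend with transcript length does not cancel where the lengths differ. Rpl22l1 exceeded Rpl22 in every library: the count ratio was 1.76, 1.81, 1.53, 1.58 and 2.08 in SNpc. In VTA it was 1.10, 1.01, 1.72, 1.47 and 1.3. The ratio was lowest in VTA 1 and VTA 2, VTA 4 lay within the SNpc range, and the mean log2 ratio differed by 0.43 (two-sided exact permutation test, p = 0.0317, adjusted p = 0.0992 over 5 pairs). The smallest p that 5 libraries against 5 allow is 0.00794. The annotated transcripts of Rpl22l1 and Rpl22 are 552 and 2051 bases long. With the trend on length and GC content removed, as described below, their log2 fold changes were -0.07 and -0.04. The ratio itself was not corrected for length.

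None of the other 4 pairs passed either. Rps27l was far below Rps27, at 0.0747 to 0.128 of its count in SNpc and 0.0683 to 0.0907 in VTA (log2 difference 0.38, exact permutation p = 0.0556). Rps4y2 stood at 0.0674 to 0.108 of Rps4x in SNpc and 0.0495 to 0.0931 in VTA (0.44, exact permutation p = 0.0635). The annotated transcript used for Rps4y2 has no coding sequence. Rpl36al exceeded Rpl36a 2.14 to 3.18 times in SNpc and 1.86 to 2.61 times in VTA (0.27, exact permutation p = 0.0794). The adjusted p was 0.0992 in these 3 pairs as well. Rpl7l1 stood at 0.107 to 0.164 of Rpl7 in SNpc and 0.0892 to 0.144 in VTA (0.08, exact permutation p = 0.643, also after adjustment). A read that fits a gene and its near copy may have been counted for either.

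As single genes, Rpl22l1 and Rpl7l1 were both called and separate between regions. The log2 fold change of Rpl22l1 was 0.52 ± 0.15 (SE, edgeR adjusted p = 0.0132) and that of Rpl7l1 was 0.52 ± 0.15 (SE, edgeR adjusted p = 0.0107). The tissue-restricted paralogs had few or no counts. Rpl10l, known from testis, had 0 counts in all libraries. Rpl39l, known from testis too, had 0 to 42 counts per library and was not tested. Rpl3l, known from muscle, had 0 to 88 counts and no call (log2 fold change 1.79 ± 1.18, edgeR adjusted p = 0.249).

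Among the members, the difference between regions moved with transcript length. The members have a median annotated length of 834 bases, and that of all tested genes is 3003 bases. Of those with transcripts up to 600 bases 16 of 23 were called (median log2 fold change 0.48), of those over 600 and up to 1000 bases 19 of 35 tested (0.40) and of longer ones 14 of 26 tested (0.35). Over 84 members the Spearman correlation of length with log2 fold change was -0.33. These points share the same 10 libraries and are not independent.

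All genes tested showed a gradient of the same sign. Of 933 genes tested with transcripts up to 1000 bases, 365 (39.1%) were called higher in SNpc, 39 were called higher in VTA and the median log2 fold change was 0.42, whereas the median was -0.07 for the 13864 longer genes, 17.1% of which were called higher in SNpc. Over 14797 genes the Spearman correlation was -0.38. In single libraries, the slope of log2 CPM deviation on length was negative in all SNpc libraries, with values of -0.18, -0.17, -0.13, -0.14 and -0.04 per doubling of length. It was positive in all VTA libraries, with 0.18, 0.23, 0.07, 0.10 and 0.09. VTA 1 and VTA 2, where the members were lowest, had the steepest of the VTA slopes. Slope and member level did not run in the same order throughout. SNpc 4, where the members were highest, had a milder slope than SNpc 1 and SNpc 2.

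**Figure D4:**
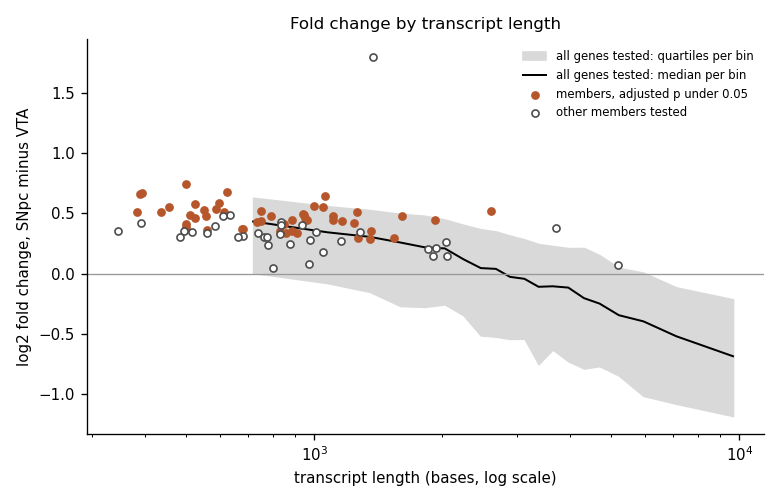
Log2 fold change (SNpc minus VTA, vertical axis) against annotated transcript length in bases (log axis); points are the 84 tested ribosomal protein genes, filled where the adjusted p is under 0.05, the line is the median of all genes tested in 20 bins of length and the band their quartiles. The line falls from 0.43 in the bin of the shortest genes to -0.69 in the bin of the longest, and the members lie mostly at the short end.

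When a trend of log2 CPM on length and GC content was removed from each library, the median log2 fold change of the tested members was 0.00. The 1 call toward SNpc was Rpl7l1 (0.44, edgeR adjusted p = 0.0307). Toward VTA there were 2, Rpl10 (-0.37, edgeR adjusted p = 0.00445) and Rps4x (-0.33, edgeR adjusted p = 0.0412). In that fit 14.8% of all genes were called higher in SNpc and 16.5% higher in VTA. Rpl23, Rpl34 and Rps2 had log2 fold changes of 0.20, 0.23 and 0.23 there, without a call.

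Of the 49 calls 1 was shared with that fit. Most members are short, and a difference of ribosomal protein mRNAs and one of short transcripts in general cannot be told apart by this correction. Rpl10 and Rps4x, short genes with log2 fold changes near 0 before correction, were called lower in SNpc than the trend of genes of their length and GC content.

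**Figure D5:**
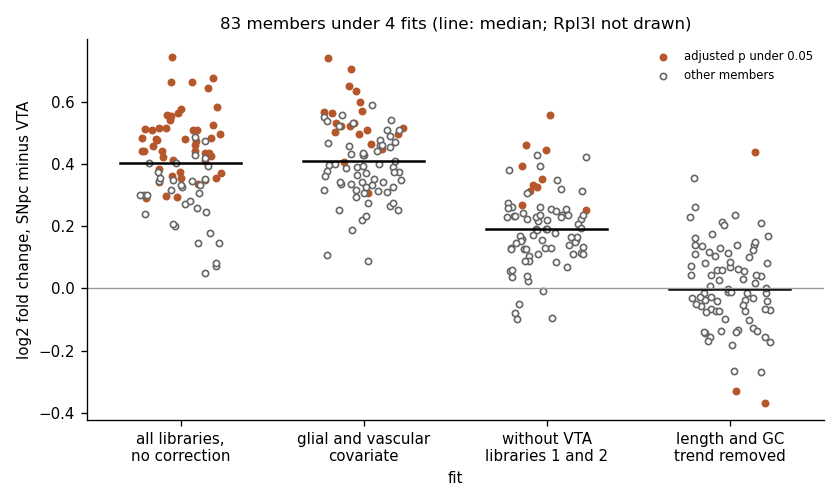
Log2 fold change (SNpc minus VTA, vertical axis) of 83 tested ribosomal protein genes in 4 fits (horizontal axis); each point is a gene, filled where its adjusted p is under 0.05, and the line is the median. The median lies near 0.4 in the fit of all libraries and in that with the glial and vascular covariate, at 0.19 without VTA 1 and VTA 2, and at 0 with the length and GC trend removed; Rpl3l is not drawn.

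Ribosomal proteins that the naming rule does not reach were examined beside the members. Fau, a fusion of a ubiquitin-like protein with a small subunit protein, was at 195 ± 12.5 CPM in SNpc libraries against 134 ± 28.6 CPM in those of VTA (SD, n = 5 per region; log2 fold change 0.54 ± 0.13, edgeR adjusted p = 0.00305). Its values were separate between the regions. Gnb2l1, the scaffold protein Rack1 on the small subunit, had 0.22 ± 0.13 and was not called (edgeR adjusted p = 0.199).

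Of all genes tested, 17.8% were called toward SNpc and 20.4% toward VTA, and the median was -0.04, which is the background for the lists that follow. Of proteins of the mitochondrial ribosome, which is built from other genes, 52 of 76 were called higher in SNpc (68.4%), 1 was called higher in VTA and the median log2 fold change was 0.51. Factors that assemble ribosomes were mixed, with 16 of 40 higher in SNpc, 3 in the VTA direction and a median of 0.32. Wdr12, needed for maturation of the large subunit, was higher in SNpc (0.84 ± 0.12, edgeR adjusted p = 6.6e-05). The very large ATPase Mdn1 (-1.19 ± 0.18, edgeR adjusted p = 8.33e-05) and Tsr1, which acts on the small subunit (-0.59 ± 0.09, edgeR adjusted p = 0.000117), were higher in VTA.

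RNA polymerase I makes the ribosomal RNA, and 3 of 14 genes for its subunits and factors were higher in SNpc (21.4%, near the 17.8% of all genes tested) and 0 in VTA (median 0.33). These were Rrn3, an initiation factor (0.47), and the subunits Polr1d (0.49) and Znrd1 (0.39). Of 17 other mRNAs known to start with a pyrimidine tract, 6 were higher in SNpc, 1 was higher in VTA and the median was 0.23. Btf3 (0.61, edgeR adjusted p = 0.00291) and Hnrnpa1 (0.44, edgeR adjusted p = 0.000471) were higher in SNpc, and the poly(A)-binding protein Pabpc1 (-0.95) was higher in VTA.

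Of 20 regulators of ribosomal protein synthesis, 2 were higher in SNpc and 8 in VTA, where all genes tested gave 17.8% and 20.4%, and the median log2 fold change was -0.23. Rictor, a subunit of the second mTOR complex (-0.80 ± 0.12, edgeR adjusted p = 7.2e-05), the S6 kinase Rps6kb1 (-0.77 ± 0.12, edgeR adjusted p = 9.88e-05) and the translational repressor Eif4ebp2 (-0.67 ± 0.11, edgeR adjusted p = 0.000145) were the 3 with the smallest p, all higher in VTA. All 3 were separate between the regions. No difference between a list and the members was tested, and these values carry no correction for length.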

How the data were processed

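The authors deposited raw counts of reads per gene, whole numbers without normalization, for 23079 genes in 12 columns. Reads were aligned with TopHat2 2.0.8 to mm10 (per the submitters' processing notes). How reads were assigned to genes, and whether by strand, is not given in the sources used. Per the labels' protocols, cDNA was amplified from 1 ng of RNA, a step that does not mark the strand, and single-end reads of 100 bases were taken. Identical columns were counted once, which left 10 libraries. Counts were filtered with filterByExpr, scaled by TMM and fitted in edgeR 4.0.16 (R 4.3.3, robust quasi-likelihood test, no covariate), and p-values were adjusted over 15685 genes by the Benjamini-Hochberg method. Alternatives used DESeq2 1.42.0, other scalings and filters, covariates, left-out libraries and splines of 4 degrees of freedom each on transcript length and GC content. Gene identifiers matched RefSeq for 23008 genes, and GENCODE vM21 gave coordinates and 20945 lengths, the latter for all 86 members. Paralog ratios needed at least 10 counts of both genes in every library. The members and lists were chosen with earlier results of these data known. Genes named are the 8 called with the smallest p in each direction, the 4 highest and 4 lowest by fold change, the 4 most abundant per length in each subunit, a list chosen by role, paralog pairs, untested members, members with 1 library apart, and the 3 of each pathway list with the smallest p. Some genes that this rule names are not reported here; they remain in all counts and medians.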

Additional observations from a re-analysis of the deposited data

Results flagged for a closer look

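In 7 members SNpc library 4 stood apart above the other 4 SNpc libraries, by Dixon's criterion for 5 samples (a gap of more than 0.71 of the range). This criterion does not measure the size of the difference, which was small for Rpl3 and Rpl22l1. Of 168 checked groups, 84 members in 2 regions, these 7 were found. Chance gives about 1 in 20 only where the groups are independent. These groups share libraries, and all 84 tested members were above their own mean in SNpc 4. The number found therefore cannot be judged against that rate. The levels in SNpc 4 were 260.0 CPM for Rpl30 (other SNpc libraries 170.1 to 195.7), 334 for Rps3a (239 to 256), 297.8 for Rps4x (185 to 208), 345.6 for Rps15a (226 to 258) and 472 for Rpl3 (421.5 to 430.2). They were 225.6 for Rpl17 (149.5 to 169.8) and 111.3 for Rpl22l1 (92.3 to 96.0). The 7 members share that library. SNpc 4 also had the highest mean log2 CPM of oligodendrocyte (6.37), microglial (2.32), GABA neuron (6.17) and astrocyte (3.905, next VTA 1 with 3.871) markers of the 10 libraries, and the lowest of dopaminergic markers in SNpc (8.87); their part in these values was not tested. Without SNpc 4, 49 members were called higher in SNpc, 47 of them shared with the fit of all libraries, while the share of all genes called higher in SNpc was 20.9%, against 17.8% with it.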

How the results depend on the processing

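Direction was the same for every tested member under the other scalings, DESeq2, no low-count filter, all 12 columns, the replicate block alone and the marker covariate, and no member was called higher in VTA there. Calls toward SNpc, 49 with all libraries, were 59 with RLE factors (19.5% of all genes), 34 with library totals (15.3%), 53 with TMM without the members (18.1%), 64 with DESeq2 (19.2%), 46 without filter (13.7%), 75 with all 12 columns (21.9%) and 21 with the covariate (9.56%). They were 10 of 84 without VTA 1 and VTA 2 (11.5% of all genes), an alternative chosen after seeing the data. Leaving out 1 library at a time gave 28 to 60 calls toward SNpc (14.5% to 20.9% of all genes). It gave 0 toward VTA (17.7% to 20.1% of all genes) and medians of 0.31 to 0.48. Without the 100 most abundant other genes the mean shares in SNpc and VTA were 2.13% and 1.61%.

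With the length and GC trend removed, calls were 1 toward SNpc and 2 toward VTA with library scale kept (median 0.00035) and with it refitted (median -0.0066), and 0 and 1 with the replicate block added (median 0.059); the cause was not tested. With scale kept, log2 fold changes below 0 among the members named were Rpl5 -0.027, Rpl10 -0.37, Rpl10a -0.037, Rpl22 -0.037, Rpl26 -0.029, Rpl36a -0.27, Rps15 -0.031, Rps3a -0.14, Rps4x -0.33, Rps6 -0.17, Rpl23a -0.14, Rps3 -0.073, Rpl17 -0.18, Rplp1 -0.069, Rps27 -0.17, Rpl11 -0.065, Rpl39 -0.010, Rpl22l1 -0.073 and Rpl24 -0.073. With scale refitted they were Rpl5 -0.034, Rpl10 -0.38, Rpl10a -0.044, Rpl22 -0.044, Rpl26 -0.036, Rpl36a -0.27, Rps15 -0.038, Rps3a -0.15, Rps4x -0.33, Rps6 -0.18, Rpl23a -0.14, Rps3 -0.078, Rpl3 -0.0059, Rpl17 -0.19, Rplp1 -0.076, Rps27 -0.17, Rpl11 -0.070, Rpl39 -0.015, Rpl22l1 -0.078 and Rpl24 -0.079. With the replicate block and the trend removed they were Rpl5 -0.0026, Rpl10 -0.33, Rpl22 -0.089, Rpl36a -0.26, Rps15 -0.011, Rps3a -0.083, Rps4x -0.31, Rps6 -0.13, Rpl23a -0.10, Rpl17 -0.13, Rplp1 -0.063, Rps27 -0.13, Rpl11 -0.0071, Rpl22l1 -0.027 and Rpl24 -0.026. Without VTA 1 and VTA 2, those of Rpl10 -0.094, Rps4x -0.10, Rps15a -0.079 and Rps3 -0.050 were below 0, and Rpl10 was at -0.014 without VTA 2 alone (-0.014 to 0.097 over all single libraries left out).

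The labels do not say whether replicate numbers pair the samples. Same-numbered libraries correlated at 0.03, -0.07, -0.01 and 0.04 in their deviations (numbers 1, 2, 4 and 6). The same-numbered VTA library was the best match for number 6 alone. Correlations this weak show no sign of pairing but cannot settle it. The replicate block gave 33 calls toward SNpc and 0 toward VTA (11.6% and 16.4% of all genes) and a median of 0.46. Paralog log2 differences ranged, with 1 library left out at a time, from 0.34 to 0.53 for Rpl22l1/Rpl22, 0.20 to 0.34 for Rpl36al/Rpl36a, 0.30 to 0.50 for Rps27l/Rps27, 0.35 to 0.58 for Rps4y2/Rps4x and -0.033 (without VTA 4) to 0.15 for Rpl7l1/Rpl7.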

Other observations

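The rows named as pseudogenes of members held few counts beside their parents, except Rpl34-ps1. Summed over the 10 libraries, Rplp2-ps1 had 6240 counts against 136326 in Rplp2, Rps15a-ps4 had 2623 and Rps15a-ps6 had 2268 against 171321 in Rps15a, and Rps19-ps3 had 1169 against 35245 in Rps19.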
